A study of Mus musculus with 21 samples.

Results

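The brain passage 4 (P4) arrays were compared with the brain passage 3 (P3) arrays, that is, 2 arrays of N202 mammary tumor cells after 84 days on brain tissue against 2 arrays of the same line after 63 days, 4 of the 21 arrays of the series. The samples were chosen by the tissue and passage in their labels, and no parental array was used. N202 is a line from a mammary tumor of a mouse that carries the rat HER-2/neu gene under the MMTV promoter, which is active in mammary epithelium, and all cells used here also carried histone H2B joined to a green fluorescent protein. Spheroids of these cells were placed on minced brain of C57BL/6 mice that had become revascularized in a skinfold chamber on female nude mice, which lack T cells, and after each stay of 21 days the tumor cells were taken back into culture and selected with G418. They were then either made into spheroids for the next passage, or sorted by their green fluorescence and grown for RNA. The arrays therefore measured cultured cells after their stay on the tissue. The second array of each passage was labeled a technical replicate and came from a separate culture and RNA preparation of the same adapted cells. The spread in the tests is thus that between cultures of 1 adapted line, and how far the step from P3 to P4 would recur in another line carried through the passages cannot be told from these arrays.

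Tumor cells that have reached a foreign tissue go on changing over repeated rounds of growth in it. Such change can lie in regulated programs, for example how a cell takes up nutrients, holds on to its neighbors, cuts the matrix around it or displays peptides to immune cells, and it can lie in the make-up of the chromosomes, which is often unstable in tumor lines. An expression array reads the RNA level of each gene and does not measure DNA copies or proteins.

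The brain P1 and P2 arrays, 2 each after 21 and 42 days, entered the model as groups of their own and helped to estimate the spread, and the lone P3 and P4 arrays of cells adapted on bone marrow and on lung, from the same N202 line with the same tag and treatment, were used to compare the step. All levels are log2 values after RMA, so that a difference of 1 is a 2-fold change. With 2 arrays per passage, the number of arrays limits the precision. Over the 10428 probe sets kept for the tests, the 2 arrays of P3 had a correlation of 0.9571 and those of P4 of 0.9511. Over all probe sets, both technical replicates had a higher floor. Their lower quartiles were 4.09 at P3 and 3.98 at P4, against 3.60 and 3.68 on the other arrays. The cells kept their mammary epithelial markers, with mean levels over the 4 arrays of 12.8 for Krt8, 12.6 for Krt18, 10.7 for the E-cadherin gene Cdh1 and 10.3 for Epcam. Krt19 was low, at 4.46. Erbb2, the mouse counterpart of the transgene, was at 9.50 and 9.42 at P3 and at 10.15 and 9.60 at P4, a difference of 0.42 (adjusted p = 0.362). No marker of neurons, endothelial cells, fibroblasts or red blood cells passed the limit of 7.10 below which probe sets were not tested, and the highest of them, Col1a1, had a mean of 6.24. Of the 6 astrocyte markers 1 passed it, the gap junction gene Gja1, which epithelial cells also express, at 9.46 and 9.32 at P3 and at 8.87 and 9.12 at P4 (adjusted p = 0.352), while Gfap and Aqp4 had means of 4.41 and 3.93. Of the 5 oligodendrocyte markers 2 passed, Cnp at 7.92 and 7.31 and then at 8.49 and 8.07 (adjusted p = 0.335), and Mbp at 6.89 and 7.35 and then at 7.12 and 7.15 (adjusted p = 0.979), while Mog and Mag had means of 4.72 and 4.42.

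Of 7296 genes tested, 33 were higher and 41 lower at P4, which is 0.452% and 0.562% of the genes, or 1.01% in all. In each of these 74 genes both P4 arrays lay on 1 side of both P3 arrays, and the smallest change among them was 0.99. The filter kept a probe set if any brain passage reached the limit, and 7 of the 33 rises reached it at P4 alone, among them Lncenc1, Plpp3, Mxra8, Col12a1, Dse and Plagl1, and 6 of the 41 falls at P3 alone, among them Akr1b8, Klk8, Plek2 and 1110002L01Rik. Of all tested genes, 91 reached it at P4 alone and 132 at P3 alone. Such genes could enter the test only by being higher at that passage. The mean over the 2 arrays differed 2-fold or more for 103 genes upward and 128 downward, and the median absolute difference of all genes was 0.25. At an unadjusted p under 0.05, 455 genes were higher (6.24%) and 816 lower (11.2%). With the array number of each passage as a block, 139 genes were called (1.91%), 58 higher (0.795%) and 81 lower (1.11%), and they included all 74. The number of calls depended on every one of the arrays: without array 1 of P3 it was 23, without the technical replicate of P3 2, without array 1 of P4 15 and without the technical replicate of P4 3. Without the filter on dim probe sets, and with the P1 and P2 arrays left out of the model, limma called 0 genes, with 1467 and 881 genes at an unadjusted p under 0.05. With equal array medians the split was 61 higher and 48 lower. With the median of each chromosome subtracted, which was added once the values were known, 43 were higher and 34 lower.

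The genes higher at P4 were led by Lncenc1, a long non-coding RNA described in embryonic stem cells. It was at 6.19 and 6.75 at P3 and at 10.52 and 9.97 at P4, a rise of 3.78 ± 0.27 (standard error of limma, as below; n = 2 and 2, adjusted p = 0.00352), or 13.7-fold. It had been lower still at P1 and P2, between 5.21 and 5.81, so that P4 was its highest level in the course on brain. Gpc4, which encodes glypican 4, a heparan sulfate proteoglycan held in the membrane by a lipid anchor, went from 6.98 and 6.29 to 9.20 and 9.0 (2.47 ± 0.25, adjusted p = 0.0183). At P1 and P2 its levels were 7.97 to 9.09, which placed the P3 arrays below the others and the P4 arrays close to those of P2. Hsd11b1, whose enzyme regenerates active glucocorticoid inside cells, went from 6.97 and 6.58 to 8.92 and 9.49 (2.43 ± 0.32, adjusted p = 0.0328). It too was near its P1 and P2 levels at P4.

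Tlr2, a receptor for bacterial lipoproteins, went from 7.49 and 7.92 to 10.10 and 9.53 (2.11 ± 0.31, adjusted p = 0.0395), above its levels of 6.62 to 7.82 at P1 and P2. Myeloid cells also express Tlr2. Of the 9 macrophage and microglia markers, the lysosomal Cd68 was the only one to pass the limit and had a difference of 0.98 (adjusted p = 0.229). The next highest, Cx3cr1, was at 5.83 and 5.67 at P3 and at 5.85 and 6.56 at P4. Ptprc, Csf1r, Itgam, Adgre1 and Lyz2 stayed between 2.95 and 5.47 on all 4 arrays. The mean over the 9 markers was 4.55 and 4.53 at P3 and 4.64 and 5.05 at P4.

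Slc2a6, a sugar carrier of the GLUT family, rose by 2.03 ± 0.33 from 8.35 and 9.11. Slc39a4, a zinc importer, went from 7.48 and 8.13 to 9.41 and 9.57 (1.69 ± 0.24), and Slc27a1, a fatty acid carrier, rose by 1.24. Plpp3, which removes phosphate from lipid mediators outside the cell, rose by 2.06 ± 0.35. Cadm1, an adhesion molecule of the immunoglobulin family, went from 6.58 and 6.01 to 8.25 and 7.80 (1.73 ± 0.25), below its P1 levels of 9.71 and 9.55. Mxra8, a membrane protein of the same broad family, rose by 1.65 ± 0.21 and was higher than on any P1 or P2 array, where it lay between 5.29 and 5.78. Tjp3, a scaffold of tight junctions, rose by 1.12 ± 0.18 and Rgma, a membrane-anchored guidance molecule, by 1.11 ± 0.18. In the matrix, Col12a1, a collagen that binds to other collagen fibrils, rose by 1.56 ± 0.25. Dse, an epimerase that makes dermatan sulfate, rose by 1.58 ± 0.27 and Adamts9, a protease of proteoglycans, by 1.15 ± 0.20. Adamts9 was measured by 5 further probe sets that were kept, which differed by 1.03 to 1.66, and 1 of these 5 passed the test.

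Among regulators and enzymes, Elf5, a transcription factor of the mammary luminal and alveolar cell, went from 8.09 and 7.94 to 9.40 and 9.41 (1.39 ± 0.17, adjusted p = 0.0264), near its P1 and P2 levels of 9.68 to 9.80. Plagl1, a zinc finger factor, rose by 1.63 ± 0.25. Marcks, a substrate of protein kinase C that binds actin, rose by 1.68 ± 0.24. Ckmt1, the mitochondrial creatine kinase, rose by 1.64 ± 0.21 to 8.45 and 8.53. Of the 15 largest rises, the remaining genes were Denn2b (1.95), Klhl38 (1.84) and Atp6v0a4 (1.73).

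**Figure D1:**
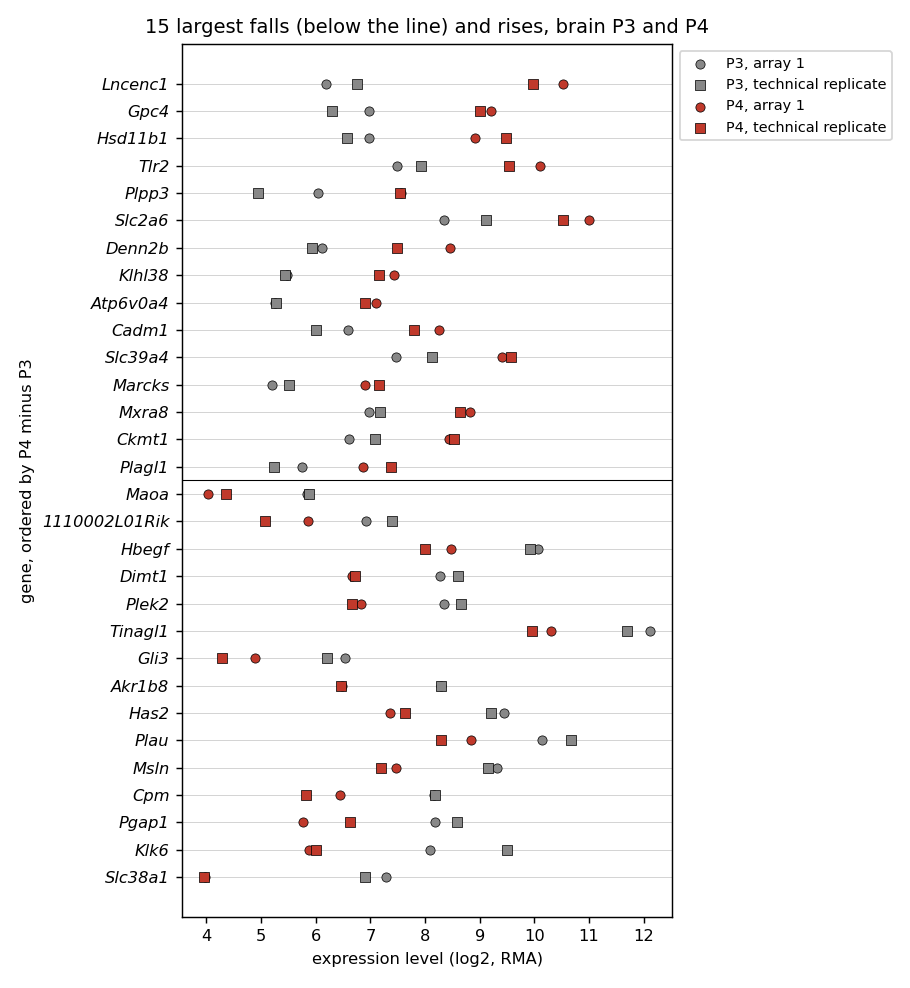
Expression level (log2, RMA; x axis) of the 15 genes with the largest called rises (above the line) and the 15 with the largest called falls (below it), on each of the 4 arrays; gray symbols are P3, red symbols P4, circles the first array and squares the technical replicate. In all 30 genes the 2 red symbols lie on 1 side of the 2 gray ones, and the widest gaps are those of Lncenc1 (6.19 and 6.75 against 10.52 and 9.97) and Slc38a1 (7.28 and 6.90 against 3.98 and 3.97).

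The genes lower at P4 were led by Slc38a1, a sodium-coupled carrier of glutamine and other neutral amino acids. It was at 7.28 and 6.90 at P3 and at 3.98 and 3.97 at P4 (-3.12 ± 0.20, adjusted p = 0.00302). The P4 levels lay near the lower quartiles of these arrays, 3.68 and 3.98, where the array responds little, so the size of the fall is uncertain and may be understated. Gli3 and Maoa were likewise below the array medians of 5.14 and 5.15 on both P4 arrays. At P1 and P2 Slc38a1 had been at 8.06 to 8.41, so P4 was its lowest level in the course. Klk6, a secreted serine protease of the kallikrein family, went from 8.09 and 9.50 to 5.87 and 6.01 (-2.85 ± 0.42, adjusted p = 0.0399). Its family member Klk8, on the same chromosome, fell by 1.16 ± 0.20.

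Plau, the urokinase that activates plasminogen, went from 10.14 and 10.66 to 8.84 and 8.29 (-1.84 ± 0.31, adjusted p = 0.0452), still above its levels of 5.54 to 7.02 at P1 and P2. Cpm, a carboxypeptidase on a glycosylphosphatidylinositol (GPI) anchor, went from 8.16 and 8.18 to 6.44 and 5.82 (-2.04 ± 0.28). Pgap1, an enzyme that remodels GPI anchors, differed by -2.18 ± 0.36, and Msln, which encodes the GPI-anchored mesothelin, by -1.90 ± 0.21. Has2, which makes hyaluronan, went from 9.44 and 9.21 to 7.37 and 7.63 (-1.82 ± 0.21, adjusted p = 0.0264). Has2 had been between 3.80 and 4.16 at P1 and P2, so its P4 level lay between those of the early passages and P3. Akr1b8, an aldo-keto reductase, and Anxa8, an annexin, had the same order of levels. Akr1b8 was at 3.60 to 4.74 at P1 and P2, at 8.29 on both P3 arrays and at 6.48 and 6.47 at P4. Anxa8 was at 4.66 to 5.06, then at 8.88 and 8.76, and at P4 at 7.42 and 7.48.

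Hbegf, a ligand of the EGF receptor, went from 10.07 and 9.91 to 8.48 and 8.0 (-1.75 ± 0.24, adjusted p = 0.0328). Gli3, a transcription factor of the hedgehog pathway, differed by -1.80 ± 0.25, and Ltbp1, which holds latent TGF-beta in the matrix, by -1.35 ± 0.18. Maoa, which degrades serotonin and noradrenaline, was at 5.84 and 5.88 at P3 and at 4.04 and 4.36 at P4 (-1.66 ± 0.22), after 7.18 to 8.4 at P1 and P2. Odc1, the first enzyme of polyamine synthesis, fell by 1.32 ± 0.21 and its other kept probe set by 1.55, and both passed the test. Tinagl1, a matrix protein, differed by -1.77, Plek2, a pleckstrin, by -1.75 and the uncharacterized transcript 1110002L01Rik by -1.69. Rasa1, which switches off Ras, fell by 1.01 ± 0.17.

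A stretch of neighboring genes was lower at P4 at the end of chromosome 13. In the gene order of RefSeq (GRCm38.p6), the last 40 of the 273 tested genes of that chromosome, from Mrps36 to Zfp131, were all lower at P4, with a median difference of -0.93 and a range from -0.07 (Mrps36) to -1.75 (Dimt1). The start of this run was set at the last gene that was not lower, after the values had been seen, so it is a description without a test. Of the 40 genes, 2 (Emb and Gpx8) reached the filter limit at P3 alone, so their falls are in part set by the filter. The number that reached it at P4 alone was 0. In 37 of the 40 genes both P4 arrays were below both P3 arrays, against 29.7% of all tested genes. A difference of 2-fold or more was seen in 17, an unadjusted p under 0.05 in 30, and 9 were called, or 12 with the block. These 9 were 22% of the 41 called falls, while the 40 genes were 0.548% of the genes tested. As the run was drawn to hold lower genes only, part of the excess over the shares of all genes is built in.

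The called genes of the run have unlike functions. Dimt1, which methylates ribosomal RNA, went from 8.27 and 8.61 to 6.66 and 6.72 (-1.75 ± 0.20, adjusted p = 0.0264). Paip1, a partner of the poly(A)-binding protein in translation, went from 8.08 and 8.21 to 6.66 and 6.81 (-1.41 ± 0.17, adjusted p = 0.0264). Tmem267, a membrane protein, differed by -1.63 ± 0.26, and Plk2, a polo-like kinase induced by p53, by -1.40 ± 0.23. Mocs2, needed for the molybdenum cofactor, differed by -1.21 ± 0.21, Nln, a peptidase that cleaves neurotensin, by -1.15 ± 0.17, Kif2a, a kinesin that shortens microtubules, by -1.14 ± 0.19 and Mier3, a repressor subunit, by -1.10 ± 0.17. Hmgcs1, an enzyme early in cholesterol synthesis, differed by -0.99 ± 0.17. Of the members that were not called, Itga2, the collagen-binding integrin alpha 2 subunit, was at 8.71 and 8.77 at P3 and at 7.58 and 7.24 at P4 (adjusted p = 0.0725; 0.0383 with the block). Fst, which encodes the activin inhibitor follistatin, differed by -1.11 (adjusted p = 0.104), Ndufs4, a subunit of respiratory complex I, by -1.0 and Il6st, the shared receptor subunit gp130, by -0.74. The smallest differences were those of Mrps36 (-0.07), the first gene of the run, Map3k1 (-0.12), which lay between Mier3 (-1.10) and Il6st (-0.74), and Parp8 (-0.23), between Itga2 (-1.33) and Emb (-0.71).

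The run was low on the P4 arrays alone among the brain arrays. Taken relative to the mean of the P3 arrays, the median of the 40 genes was 0.20 and 0.15 on the P1 arrays, 0.09 and 0.16 on the P2 arrays, and -0.83 and -0.94 on the P4 arrays, where the median of all tested genes was -0.02 and -0.14. The median difference between P4 and P1 was -1.01, between P4 and P2 -0.99 and between P3 and P2 -0.14. From P3 to P4 the run had a median of 0.13 on bone marrow, where 13 of the 40 genes were lower and the median of all genes was 0.11, and of -0.20 on lung, where 30 were lower and the median of all genes was 0.01. In the contrast of the brain step with the bone marrow step the median of the run was -0.98 (all genes -0.19) and in that with the lung step -0.73 (all genes -0.10). None of the 40 passed the test in the former and Emb in the latter.

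**Figure D2:**
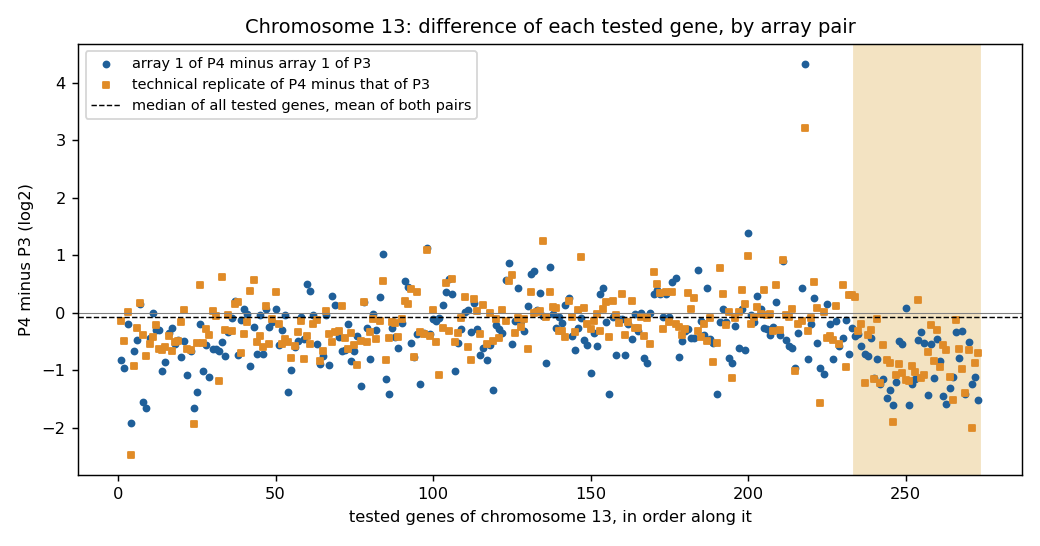
Difference between P4 and P3 (log2; y axis) for the 273 tested genes of chromosome 13 in their order along it (x axis), with circles for the first arrays and squares for the technical replicates; the shaded area holds the 40 genes from Mrps36 to Zfp131 and the dashed line is the median of all tested genes, -0.08. Both array pairs drop within the shaded area, where the median of the pair means is -0.93, and the isolated pair of points above 3 is Lncenc1.

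The rest of chromosome 13 was less shifted, with a median of -0.25 over 233 genes, of which 174 were lower. It held 2 called falls, Gli3 and Rasa1, and 3 called rises, Lncenc1, Serinc5 (1.18 ± 0.18) and Rnf144b (1.10 ± 0.18). In the medians of 20 neighboring tested genes over all chromosomes (6910 windows, median -0.08, highest 0.47), 42 windows were below -0.5. Of these, 32 lay on chromosome 13, which also had the lowest at -1.02, 6 on chromosome 1, 3 on chromosome 14 and 1 on chromosome 12. Successive windows were 1 gene apart and shared most of their genes, so these are not counts of separate regions. Chromosomes 14 and 12 were shifted as a whole, with medians of -0.32 (230 genes, 79.1% lower) and -0.25 (264 genes, 76.9% lower), against 59.6% lower among all genes. The shift of chromosome 14 was -0.39 in the first pair of arrays and -0.27 in the second, and that of chromosome 12 was -0.31 and -0.19. On lung the same step gave medians of -0.15 and -0.19 for these chromosomes, and on bone marrow 0.11 and 0.02. Chromosome 17 was the highest, at 0.06. These medians carry no test.

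**Figure D3:**
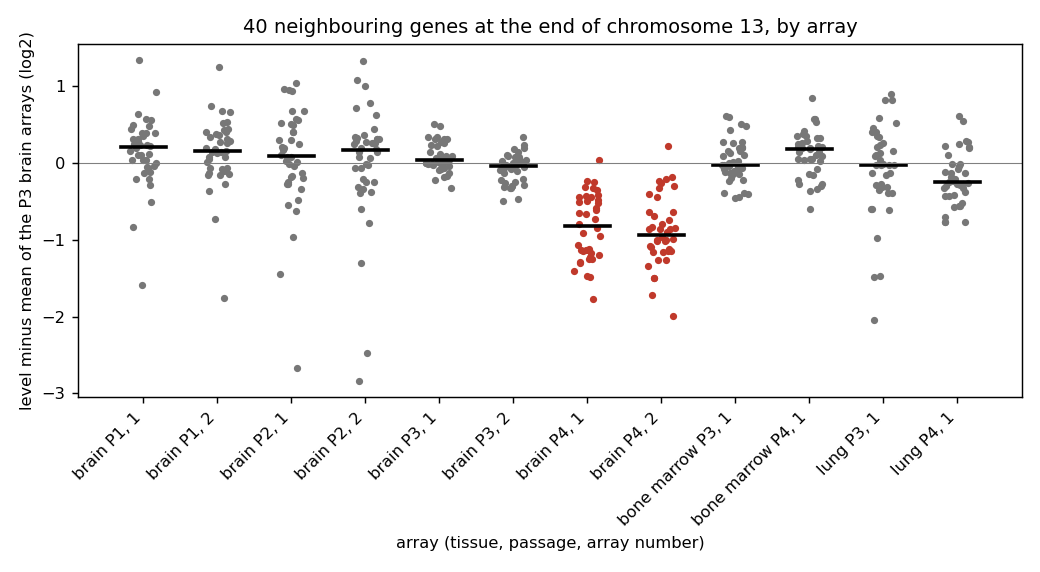
Level of each of the 40 genes at the end of chromosome 13 minus its mean over the P3 brain arrays (log2; y axis) on 12 arrays named by tissue, passage and array number (x axis); each point is a gene, bars are medians and the P4 brain arrays are red. The medians are -0.83 and -0.94 on the P4 brain arrays and between -0.25 and 0.20 on the other 10.

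Among the gene lists, each described by the count of its calls and its median beside the median of all genes of -0.08, antigen presentation stood highest. Genes of this pathway cut proteins in the immunoproteasome, carry the peptides into the endoplasmic reticulum and load them on class I molecules of the major histocompatibility complex. All 12 tested members were higher at P4 by their means, with a median of 0.73, but none was called, and 7 had an unadjusted p under 0.05 upward, against 6.24% of all genes. These are the 12 of 15 members on the array that passed the filter, and Psmb9 reached its limit at P4 alone; without Psmb9 the median was 0.68. In 9 of the 12 both P4 arrays were above both P3 arrays, against 16.4% of all genes. The members do not all lie apart in the genome. H2-T10, H2-Q4, Tapbp, Psmb8 and Psmb9 are on chromosome 17, the last 4 with starts between bases 33919228 and 35379666. That chromosome had a median of 0.06, and its highest window of 20 neighboring tested genes had one of 0.335. A shift of this region was not tested. H2-T10, a non-classical class I gene, was at 8.47 and 7.52 at P3 and at 9.51 and 9.03 at P4 (1.27 ± 0.33, adjusted p = 0.126), and passed with the block (adjusted p = 0.0415). H2-Q4, another class I gene, was at 7.64 and 7.47 and then at 8.55 and 8.36 (0.90 ± 0.22, adjusted p = 0.119). Class I genes resemble each other closely, so their probe sets may share signal. Of the 3 inducible catalytic subunits of the immunoproteasome, Psmb8 was at 7.53 and 7.48 and then at 8.50 and 8.42, with differences of 0.96 for Psmb8, 0.78 for Psmb9 and 0.68 for Psmb10. Tapbp, which encodes the loading chaperone tapasin, differed by 0.78 and Tap2, a subunit of the peptide transporter, by 0.44. B2m, the light chain of all class I molecules, was high at 12.40 and 12.24 and then at 12.72 and 12.58 (0.33, adjusted p = 0.367), and Psme1, Erap1 and Psme2 differed by 0.14, 0.21 and 0.05. Nlrc5, which activates the transcription of class I genes, has a probe set that differed by 1.01 ± 0.31 (adjusted p = 0.169) and a dimmer one, not used for the gene, at 6.11 and 6.07 and then at 7.0 and 7.21 (1.02, adjusted p = 0.0447). On bone marrow and lung the same list had medians of 0.30 and 0.08.

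The promoters of these genes were searched because all tested members were higher by their means. RefSeq windows from 250 bases before to 50 after the start were at hand for 9 of the 12 genes (GRCm38.p6), and 2 motifs were searched on both strands: GAAANNGAAA, the core of sites for interferon regulatory factors, and TTCNNNGAA, the form bound by STAT factors. The first was in 3 of the 9 genes (B2m, Psme1 and Erap1) and in 3.44% of all 32851 windows, and the second in 1 (Psmb8) and in 8.30% of all windows. The 3 windows with the first motif belong to genes with small differences here. The windows follow in the direction of the gene, with the match in capitals, which reads as the reverse complement in Psme1 and Erap1.
B2m, chr2:122147437-122147736 (+ strand): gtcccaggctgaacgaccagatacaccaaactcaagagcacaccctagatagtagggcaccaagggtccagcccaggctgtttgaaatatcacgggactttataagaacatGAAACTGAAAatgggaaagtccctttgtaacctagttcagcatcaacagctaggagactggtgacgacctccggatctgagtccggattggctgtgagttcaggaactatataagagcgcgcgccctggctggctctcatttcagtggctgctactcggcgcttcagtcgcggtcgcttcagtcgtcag
Psme1, chr14:55578244-55578543 (+ strand): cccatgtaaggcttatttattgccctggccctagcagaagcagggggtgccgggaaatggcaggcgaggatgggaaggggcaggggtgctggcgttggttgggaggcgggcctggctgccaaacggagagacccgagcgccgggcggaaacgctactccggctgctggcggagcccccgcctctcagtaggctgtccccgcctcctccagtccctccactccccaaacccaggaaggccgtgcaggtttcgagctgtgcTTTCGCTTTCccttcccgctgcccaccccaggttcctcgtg
Erap1, chr13:74639603-74639902 (+ strand): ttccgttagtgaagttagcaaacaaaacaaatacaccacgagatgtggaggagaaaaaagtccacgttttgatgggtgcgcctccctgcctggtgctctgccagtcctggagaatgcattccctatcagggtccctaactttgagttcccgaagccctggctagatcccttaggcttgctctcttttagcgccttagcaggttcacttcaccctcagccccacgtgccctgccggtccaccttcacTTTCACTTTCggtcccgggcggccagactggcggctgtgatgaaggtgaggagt
Psmb8, chr17:34197945-34198244 (+ strand): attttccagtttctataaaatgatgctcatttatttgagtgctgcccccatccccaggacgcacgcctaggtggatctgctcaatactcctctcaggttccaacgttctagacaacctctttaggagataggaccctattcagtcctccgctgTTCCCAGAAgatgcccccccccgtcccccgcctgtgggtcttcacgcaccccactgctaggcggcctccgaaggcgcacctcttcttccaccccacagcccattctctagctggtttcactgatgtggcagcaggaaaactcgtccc
The matches began 139 bases before the start in B2m, 97 before it in Psmb8 and 4 before it in Erap1, and in Psme1 after the start. A match describes these letters and was not tested for binding.

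The list of genes induced by type I interferon had 30 members on the array, of which 7 passed the filter, so it says little of the pathway as a whole. The 7 had a median of 0.34, and none was called. Oasl2 reached the limit at P4 alone, so its difference is in part set by the filter, and the median without it was 0.29. Trim30a was at 5.57 and 5.10 at P3 and at 6.85 and 6.73 at P4 (1.46 ± 0.32, adjusted p = 0.0911) and Oasl2, an oligoadenylate synthetase-like gene, at 6.16 and 6.10 and then at 7.36 and 7.32 (1.21 ± 0.28, adjusted p = 0.1). Irf1 and Ifitm3 differed by 0.34 and 0.24, and Usp18 by -0.12. In the list of NF-kappaB and complement genes, with a median of 0.28 over 11, Tlr2 was called, and Tnfaip2 had a difference of -1.03 (adjusted p = 0.0652).

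Lysosomal genes and the proton pump that acidifies the lysosome were the next group, with a median of 0.29 over 23 genes. Of these, 1 was called, 8 had an unadjusted p under 0.05 upward and 1 downward, and in 16 both P4 arrays were above both P3 arrays, where the shares of all genes were 6.24%, 11.2% and 16.4%. The call was Atp6v0a4, a form of the membrane subunit a of the pump, which went from 5.26 and 5.27 to 7.10 and 6.90 (1.73 ± 0.23, adjusted p = 0.0328). Another form, Tcirg1, was at 8.82 and 8.87 and then at 9.97 and 9.62 (0.95, adjusted p = 0.0980), while the form Atp6v0a1 was at 9.09 and 9.11 and then at 8.09 and 8.31 (-0.90, adjusted p = 0.0844). The 3 forms of the same subunit thus did not differ in 1 direction. The pump subunit Atp6v1f differed by 1.02 (adjusted p = 0.1; 0.0444 with the block), the enzyme gene Gla by 1.14, the calcium channel gene Mcoln1 by 0.59 and the protease gene Ctsd by 0.50.

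Lists of growth factor response lay at the other end by their medians, mostly through the second pair of arrays. In the list of ErbB receptors, ligands and ERK feedback genes, with a median of -0.26 over 18, Hbegf was called, 5 genes had an unadjusted p under 0.05 downward and none upward, against 11.2% and 6.24% of all genes. The median of this list was -0.09 in the first pair of arrays and -0.27 in the second. The phosphatase gene Dusp5 was at 8.25 and 8.06 at P3 and at 7.34 and 6.61 at P4 (-1.18 ± 0.28, adjusted p = 0.112; 0.0403 with the block), Dusp6 differed by -0.79, Errfi1, a feedback inhibitor of the receptors, by -0.68 and the ETS factor Etv5 by -0.56. Egfr and Erbb3 differed by 0.22 and 0.10. The immediate early and AP-1 genes had the lowest median of all lists, -0.29 over 16 genes, with 0 called. Klf6, Egr1, Myc and Ier3 differed by -0.80, -0.77, -0.74 and -0.74, and Ccn1 and Dusp1 by 0.20 and 0.19. For this list the arrays disagreed, with a median of -0.02 in the first pair and -0.51 in the second.

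All 17 tested heat shock and proteasome genes were lower at P4 by their means, with a median of -0.28 and 0 called. The mitochondrial chaperone gene Hspd1 was at 11.37 and 10.75 at P3 and at 10.09 and 10.27 at P4 (-0.88 ± 0.23, adjusted p = 0.130), its partner Hspe1 differed by -0.56 and Psmd1, a regulatory subunit of the proteasome, by -0.51. The smallest differences were those of Hspa4 and Dnajb1, at -0.03 and -0.05. The medians of the array pairs were -0.46 and -0.08.

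**Figure D4:**
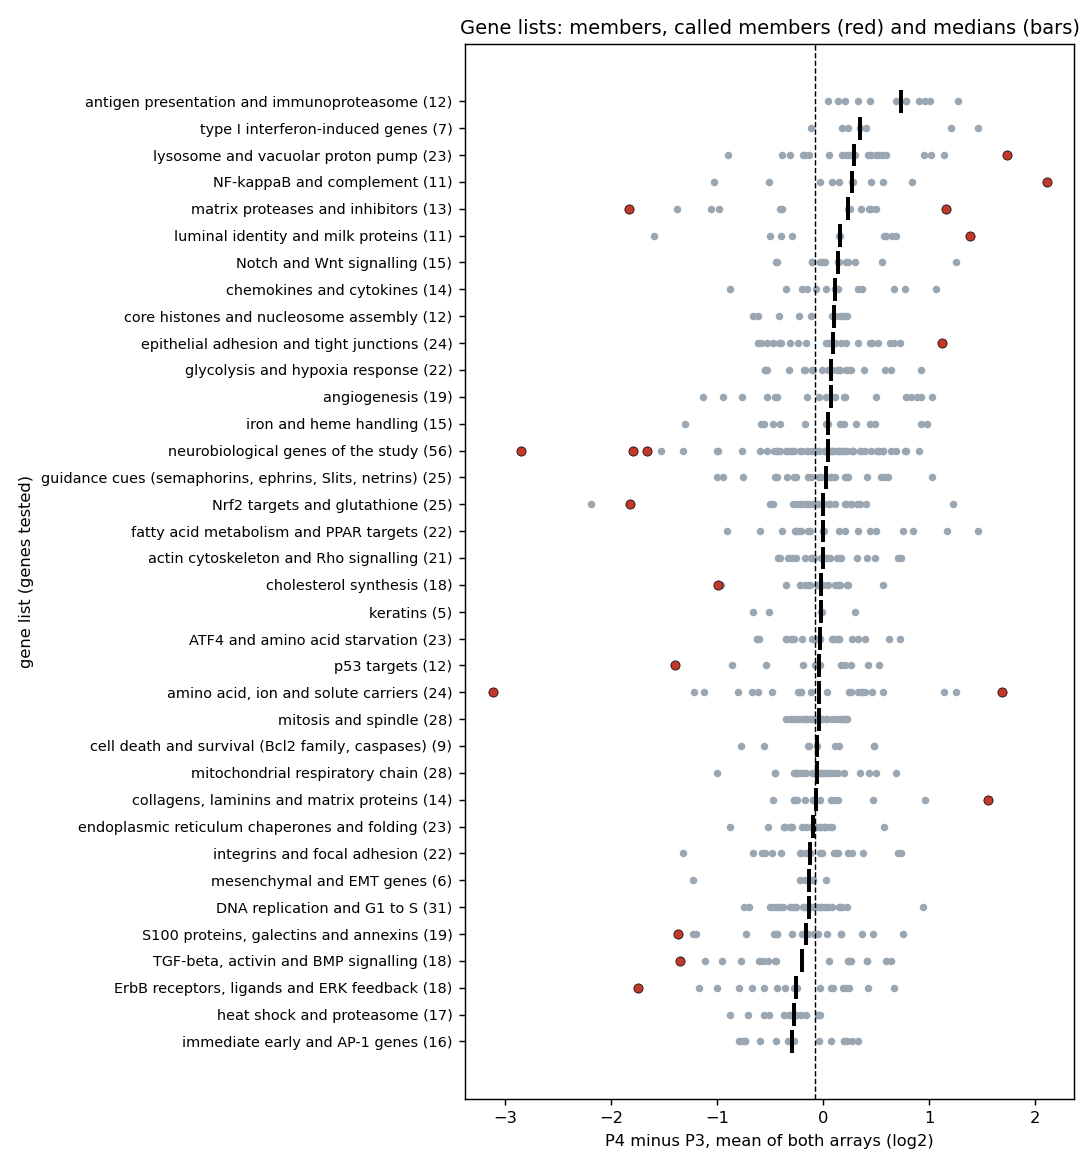
Difference between P4 and P3 (mean of both arrays, log2; x axis) of the tested members of each gene list (y axis, with the number tested), ordered by the median; points are genes, red points called genes, bars list medians and the dashed line the median of all tested genes, -0.08. Antigen presentation has the highest median, 0.73, with no red point, and the immediate early genes the lowest, -0.29.

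None of the 28 mitosis and spindle genes was called or had an unadjusted p under 0.05, their differences lay between -0.35 and 0.23, and their median was -0.04. Among 31 genes of DNA replication and entry into S phase none was called, and 1 in each direction had an unadjusted p under 0.05. The one that was higher was E2f1, a factor that drives entry into S phase, with a difference of 0.94 (adjusted p = 0.0855; 0.0446 with the block). In the lists of adhesion and matrix, matrix proteases and their inhibitors (13 genes, median 0.23) held 1 rise (Adamts9) and 1 fall (Plau), and the urokinase receptor gene Plaur was at 9.56 and 9.41 and then at 8.80 and 8.06 (-1.06, adjusted p = 0.169). The protease gene Adam8 differed by -1.38 (adjusted p = 0.120; 0.0403 with the block). Epithelial junction genes held 1 rise (Tjp3) among 24, with Cldn3 at 0.63 and the desmosome genes Dsp and Dsc2 at -0.62 and -0.59, not called. None of the 22 integrin and focal adhesion genes was called. Besides Itga2 on chromosome 13, Itgb5 differed by 0.70 and Itga6 by -0.58. Of the 6 tested mesenchymal genes none was called, and S100a4 was at 9.91 and 9.44 and then at 8.50 and 8.4 (-1.23, adjusted p = 0.0755).

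In the luminal list Elf5 was the only call among 11. The luminal factor genes Gata3 and Stat5a differed by 0.69 and 0.58, and Ltf, which encodes lactoferrin, was uneven, at 11.34 and 10.37 at P3 and at 7.95 and 10.58 at P4. Carriers and channels held Slc39a4 and Slc38a1 in opposite directions. The calcium-activated potassium channel gene Kcnn4 was at 10.28 and 10.21 and then at 9.24 and 8.99 (-1.13, adjusted p = 0.0511; 0.0320 with the block). In cholesterol synthesis the 1 call was Hmgcs1 of the chromosome 13 run, and the 18 genes had a median of -0.03. Among the targets of Nrf2, Akr1b8 was called, Akr1c18 differed by -2.20 (adjusted p = 0.0980) and Mgst1 by 1.22 (adjusted p = 0.0863; 0.0348 with the block). The neurobiological genes that the study listed as raised on brain at P1 were chosen on arrays of this series and are no independent evidence of a direction. Of the 56 tested, 3 were called, all lower at P4 (Klk6, Gli3 and Maoa), where 0.562% of all genes were called lower. By their means 30 of the 56 were higher, and the median was 0.04. At an unadjusted p under 0.05, 5 were higher and 9 lower, against 6.24% and 11.2% of all genes. The array pairs disagreed, with medians of 0.09 in the first and -0.23 in the second. The remaining lists held at most 1 call, with medians between -0.20 (TGF-beta, activin and BMP signaling) and 0.14 (Notch and Wnt signaling). In them, 4 genes passed with the block alone: the chemokine gene Cxcl5 (1.06, adjusted p = 0.075 without it and 0.042 with it), the fatty acid desaturase gene Fads1 (1.17, 0.0844 and 0.0435), the iron reductase gene Steap3 (0.98, 0.0918 and 0.0381) and the semaphorin receptor gene Plxnd1 (1.02, 0.143 and 0.0497).

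The step from P3 to P4 on brain was then set against the same step on bone marrow and on lung, which used other arrays. Each of these tissues had 1 array per passage, and the model assumed that such an array varies like the paired ones. The paper describes adaptation to lung as irregular, with arrested growth at several time points that appeared to come from hemolysis. Whether this affected the lung arrays used here was not tested. Against bone marrow, 0 genes passed limma's test (0%), and 391 had an unadjusted p under 0.05 (5.36%). The lowest adjusted p, 0.197, was shared by Slc38a1 and Pglyrp3, which encodes a secreted protein that binds peptidoglycan. Pglyrp3 fell on brain from 8.07 and 8.05 to 6.43 and 6.37 and was at 6.97 and 7.81 on bone marrow. Slc38a1 was at 7.06 and 6.76 on bone marrow and at 7.51 and 5.91 on lung.

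Against lung, 6 genes passed (0.0822%), 5 with a lower and 1 with a higher step on brain, and 635 had an unadjusted p under 0.05 (8.7%). Of these 6, Anxa8, Has2, Msln and Gpc4 were also called between P4 and P3 on brain, as were 1.01% of all genes. The brain step is a term of both tests, so this overlap is built in and is no separate evidence. Emb, of the chromosome 13 run, reached the filter limit at P3 alone among the brain passages. Its fall on brain is thus in part set by the filter. Anxa8 was at 5.09 and 8.26 at P3 and P4 on lung, against a fall on brain of 1.37, and the steps differed by -4.55 ± 0.30 (adjusted p = 0.00385). Has2 was at 6.03 and 8.25 on lung (difference between the steps -4.04 ± 0.37, adjusted p = 0.0247) and Msln at 6.79 and 8.06 (-3.17 ± 0.36, adjusted p = 0.0493). Tigit, known as an inhibitory receptor of T and NK cells, was at 8.71 and 8.63 and then at 7.44 and 7.61 on brain and at 6.31 and 8.42 on lung (-3.26 ± 0.35, adjusted p = 0.04), and its fall on brain alone had an adjusted p of 0.0524, or 0.0403 with the block. Emb, an adhesion glycoprotein encoded within the chromosome 13 run, was at 5.18 and 7.49 on lung (-3.02 ± 0.31, adjusted p = 0.0394). Gpc4 was at 8.88 and 7.65 on lung, so that its step was higher on brain by 3.70 ± 0.43 (adjusted p = 0.0494). On bone marrow none of the 6 passed the test of the difference, and their steps lay between -0.70 and 0.51. When any 1 of the 4 brain arrays was left out, Anxa8 was the only gene that passed in the contrast with lung.

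**Figure D5:**
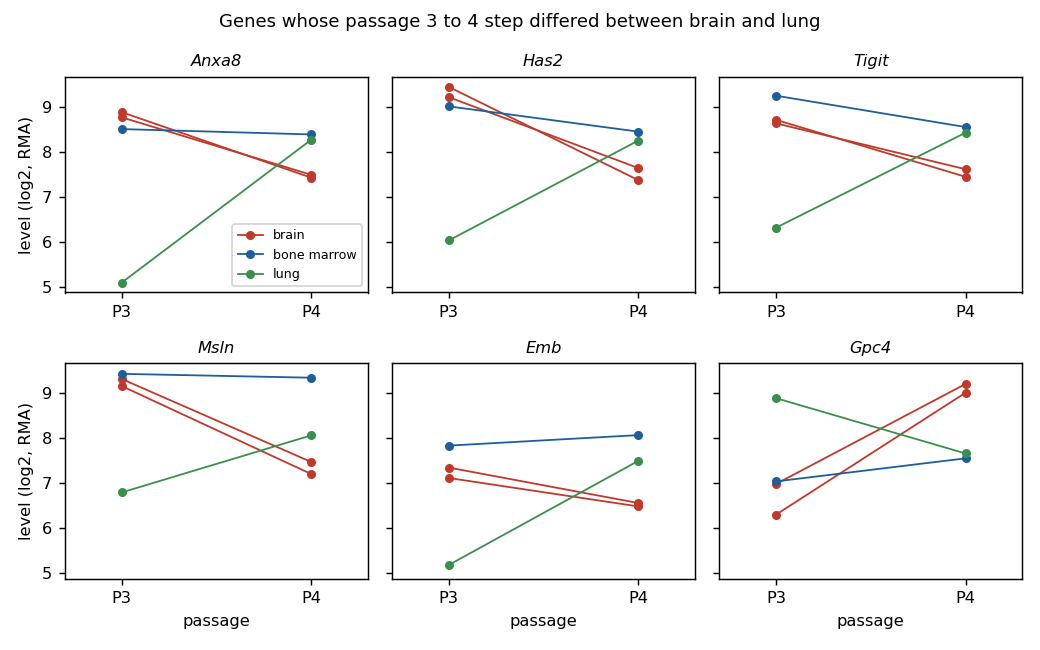
Levels (log2, RMA; y axis) at P3 and P4 (x axis) of the 6 genes whose step differed between brain and lung, with 1 line per array pair on brain (2, red), bone marrow (1, blue) and lung (1, green). In 5 genes the brain lines go down while the lung line goes up, as for Anxa8 from 5.09 to 8.26, and in Gpc4 the directions are the other way round.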

How the data were processed

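The deposited values are log2 levels of 34760 probe sets on 21 Affymetrix Mouse Gene 1.0 ST arrays. The authors made them with Expression Console by RMA (background correction, quantile normalization between arrays, median polish); quantile normalization can hide a shift of all genes. The paper removed dim probe sets by negative control probes, not used here, so the 30% of probe sets with the largest mean of a brain passage were kept (10428, limit 7.10). Symbols came from the platform annotation, and chromosome and order from RefSeq (21553 gene identifiers matched). A probe set with 1 symbol stood for its gene, the one with the highest mean where there were several, giving 7296 genes.

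With R 4.3.3 and limma 3.58.1, 1 mean per passage was fitted to the 8 brain arrays (4 residual and 3.9 prior degrees of freedom), and to these with 4 lone arrays for the other tissues. Genes were called at a Benjamini-Hochberg adjusted p under 0.05 over all kept probe sets. Array 1 was the unmarked array of a passage and array 2 the one labeled technical replicate. Arrays of the same number deviated together (correlations of deviations 0.103 to 0.364 for all 6 pairs of passages), so the block is given where it changed a call. In simulated arrays for P4 against P3, over 10428 probe sets, 1 of 50 changed 1.5-fold, 16 of 50 changed 2-fold, 37 of 50 changed 3-fold and 41 of 50 changed 4-fold were recovered, with 4 false calls. The simulated arrays were drawn independently of each other, with the observed spread of each probe set taken as its true one. They lacked the shared deviations of arrays of the same number, so recovery and false calls in the data may differ. Names were drawn from the 15 largest called rises and falls, 3 genes a list (those of lowest p), the 5 genes with the lowest adjusted p of each tissue contrast, Erbb2 and the 2 highest markers of each cell type, and not every gene these rules give is printed; other genes named were chosen after their values were seen. The comparison, the lists and the tests were chosen with earlier results of these data known. The alternatives were other filters, arrays, scalings, variance models, probe set rules and left-out arrays. Figures used Python 3.11.15 and matplotlib 3.10.9.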

Additional observations from a re-analysis of the deposited data

Results flagged for a closer look

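The steps from P3 to P4 of 6 genes differed between brain and lung by limma's test of the difference itself. The difference of the log2 steps, brain minus lung, was -4.55 for Anxa8, -4.04 for Has2, -3.26 for Tigit, -3.17 for Msln, -3.02 for Emb and 3.70 for Gpc4. All 4 differences between single brain arrays ran in 1 direction in each of them, and lung was measured on 1 array per passage. The lung steps alone were 3.18 for Anxa8, 2.22 for Has2, 2.11 for Tigit, 1.27 for Msln, 2.31 for Emb and -1.23 for Gpc4. The paper describes adaptation to lung as irregular, and whether this entered these differences was not tested. Emb reached the filter limit at P3 alone among the brain passages, so its fall on brain is in part set by the filter.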

How the results depend on the processing

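The direction of the 30 genes with the largest called changes did not turn under any of the 17 alternatives in which they were tested. These genes were chosen with all 4 differences between a P4 and a P3 array of 1 sign, so leaving out 1 array could not turn it. Alternatives that changed only the filter or the variance model left the difference itself as it was. The kept direction is thus largely built in. The 74 calls (33 higher, 41 lower) became 0 without a filter, where 1467 genes had an unadjusted p under 0.05, and 0 with the 4 arrays of P3 and P4 alone, where 881 had, both by limma. With cyclic loess 112 were called (56 higher, 56 lower), with equal array medians 61 were higher, with the replicate block 139 were called (58 higher, 81 lower), and with only probe sets of 1 gene symbol in the fit, chosen after the data had been seen, 165 (76 higher, 89 lower). Leaving out 1 array gave 2 to 23 calls, 1 to 14 higher and 1 to 11 lower. With all 21 arrays 50 of the 74 genes remained called, with cyclic loess 69, with the variance trend 55 and with chromosome medians subtracted 57. In the contrast with lung the 6 calls became 0 without a filter (483 at an unadjusted p under 0.05), 1 with all 21 arrays (Emb), 10 with cyclic loess and 1 without any 1 of the arrays (Anxa8). In the contrast with bone marrow 0 were called under every alternative run, with 343 to 518 at an unadjusted p under 0.05.

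The median of the chromosome 13 run was -1.03 with the stricter filter, -0.66 with chromosome medians subtracted and -0.97 to -0.83 without 1 array. The antigen presentation median was 0.50 to 0.82 without 1 array, lowest without array 1 of P4, the lysosome median 0.38 with cyclic loess and 0.41 with chromosome medians subtracted, and the heat shock and proteasome median -0.41 to -0.16 without 1 array, lowest without the technical replicate of P3. Sparc, at -0.10 and not called, was at -0.42 to 0.22 without 1 array, above 0 without array 1 of P4. The cause of these changes was not tested. Among the genes named, the replicate block changed no call other than those given with it in the report.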

Other observations

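Besides the genes, 14 called probe sets carried no symbol of their own. Probe set 10568731 was at 7.97 and 7.91 at P3 and at 5.99 and 5.72 at P4 (-2.09, limma's adjusted p = 0.0127), after 9.40 to 10.31 at P1 and P2. Probe set 10541507 was at 5.52 and 6.02 and then at 7.89 and 8.02 (2.18, adjusted p = 0.0399), and was at 5.97 and 9.06 on lung. Of the 74 called genes, 50 had the sign of the brain step on bone marrow, where 52.0% of all genes did, and 38 on lung, where 47.3% did.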
